A study of Mus musculus with 4 samples.

Results

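The 8 genes described here encode pattern-recognition sensors, the proteins with which a cell detects foreign or misplaced nucleic acid and microbial lipoprotein: *Ddx58* (RIG-I), *Ifih1* (MDA5), *Dhx58* (LGP2), *Ddx60*, *Zbp1*, *Eif2ak2* (PKR), *Tlr2* and *Tlr3*. They were chosen by symbol from the 31053 genes of the count tables, and each symbol matched 1 row. Their levels were followed in pancreatic islets of C57BL/6 mice (C57BL6/J in the study's methods) that had been left untreated or exposed for 6 h to IL-1β, to IFN-γ or to both cytokines, then dissociated and profiled by droplet-based 3′ single-cell RNA sequencing. The islets came from adult males and were pooled from 8 animals before they were divided among the 4 incubations, so that strain, sex and donors are shared and no group carries an engineered allele. Each group was 1 library. No test between groups is therefore possible, and the intervals given below are exact 95% intervals that cover counting error only, not the spread between animals or between repeated incubations.

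Wherever 4 values follow one another below, they stand for no cytokine, IL-1β, IFN-γ and the pair, in that order, and the library with the pair is called the combined library. The libraries held 3486, 2911, 3694 and 2480 barcodes and 50731370, 20056630, 31209339 and 25716645 unique molecular identifiers (UMIs, the count of distinct captured RNA molecules). Barcodes were kept if they had between 200 and 4000 genes and no more than 12% of UMIs from mitochondrial genes, which left 1521, 2018, 2122 and 1810 cells with median depths of 15454, 7462.5, 9615 and 11123.5 UMIs. Among them were 4868 insulin-rich (β-like), 891 glucagon-rich (α-like) and 545 somatostatin-rich (δ-like) cells, with smaller sets of 145 PP-like, 144 macrophage-like and 117 endothelial-like cells, which are called by their type names below. Of the markers reported here that were not used to name the cells, 3 of 4 β-cell, 4 of 4 α-cell and 3 of 3 δ-cell markers had their highest level of the 3 endocrine types in their own type. The exception was *Pdx1*, at 88.7 CPM (UMIs per 1000000) in β-cells and 99.4 in δ-cells. *Nkx6-1* was at 167 CPM in β-cells against 17.5 in α- and 13.5 in δ-cells, *Irx2* at 161 in α-cells against 1.82 in β- and 8.70 in δ-cells, and *Hhex* at 183 in δ-cells against 0.168 in β- and 0.852 in α-cells. In all, 16 barcode sequences occurred in more than 1 library, of which 14 were among the kept cells. The upper limit of 4000 genes removed 843 of the 2364 untreated barcodes that met the other limits. In the cytokine libraries it removed 146 of 2164, 345 of 2467 and 222 of 2032. With that limit removed, all 104 log2 ratios of sensor levels between libraries stayed inside their counting intervals. Depth differed between the libraries, so levels are given as UMIs of a gene per 1000000 UMIs of the cell type in that library (CPM), and shares of positive cells were compared only after every cell had been thinned to 4000 UMIs, or to 2000 where endothelial cells were included.

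RIG-I and MDA5 are cytosolic helicases that bind viral RNA and signal through the mitochondrial adaptor MAVS to the kinases TBK1 and IKKε, which activate interferon regulatory factors. LGP2 is a relative of both that lacks the signalling domains and modulates them, ZBP1 binds Z-form nucleic acid and can engage RIPK3 and MLKL, PKR is a kinase that binds double-stranded RNA and phosphorylates the translation factor eIF2α, TLR3 reads double-stranded RNA in endosomes, and TLR2 reads lipoprotein at the cell surface and signals through MYD88. Most of these genes are known as interferon-stimulated genes that carry interferon-response elements, whereas *Tlr2* is known as an NF-κB target.

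In the annotation of the mouse genome build GRCm38 (GENCODE M21), *Ddx58* lies on chr4:40203773-40239828, *Ifih1* on chr2:62595798-62646255, *Dhx58* on chr11:100694884-100704271, *Zbp1* on chr2:173206612-173218923, *Eif2ak2* on chr17:78852564-78882573, *Tlr2* on chr3:83836272-83841767 and *Tlr3* on chr8:45395665-45411080, all on the minus strand, and *Ddx60* on the plus strand at chr8:61928087-62038244. Annotated genes on the opposite strand overlap *Dhx58* (*Dhx58os*), *Tlr3* (*Gm45542*) and *Eif2ak2* (*n-R5s29* and *Gm26637*). Promoter sequence was given in RefSeq (GRCm38.p6) for 6 of the 8 sensors. The entries for *Dhx58* and *Zbp1* were missing. In the window from 250 bases before to 50 bases after the annotated start, read on both strands, the interferon-stimulated response element core letters GAAANNGAA were found for 4 of the 6 sensors, *Ddx58*, *Ifih1*, *Ddx60* and *Eif2ak2*, against 8.56% of all 32851 promoters of that length. The interferon-γ-activated site letters TTCNNNGAA were found only for *Eif2ak2* among the 6 (8.30% of all promoters), and the NF-κB-type letters GGNNTTTCC only for *Tlr3* (5.82%). None of these 3 letter patterns was found in the *Tlr2* window. That window does hold the letters GGGAATTCCC, another NF-κB-type form, which was not among the letters searched for. A match is a description of these letters and not a shown site, and its absence says only that these letters are not in this window.

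Promoter stretches from 200 bases before to 30 bases after the start are printed for *Ddx58*, *Ddx60* and *Eif2ak2*, which carried the interferon-type letters and which differed in how they responded to the cytokine pair, and for *Tlr2*, which stood apart from the other 7 in its response. All are written 5′ to 3′ on the strand of the gene, and capitals mark the matched letters. The regions are chr4:40239796-40240025 (minus strand), chr8:61927887-61928116 (plus strand), chr17:78882543-78882772 (minus strand) and chr3:83841579-83841808 (minus strand) in the same order.
Ddx58: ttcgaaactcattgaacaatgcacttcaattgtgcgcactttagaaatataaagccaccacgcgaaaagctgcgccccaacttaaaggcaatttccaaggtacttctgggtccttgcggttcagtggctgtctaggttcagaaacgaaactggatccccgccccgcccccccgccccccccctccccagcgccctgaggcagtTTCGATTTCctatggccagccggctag
Ddx60: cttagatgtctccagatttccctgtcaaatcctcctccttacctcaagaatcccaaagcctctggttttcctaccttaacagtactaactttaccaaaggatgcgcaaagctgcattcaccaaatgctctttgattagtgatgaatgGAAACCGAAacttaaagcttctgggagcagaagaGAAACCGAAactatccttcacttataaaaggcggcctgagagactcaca
Eif2ak2: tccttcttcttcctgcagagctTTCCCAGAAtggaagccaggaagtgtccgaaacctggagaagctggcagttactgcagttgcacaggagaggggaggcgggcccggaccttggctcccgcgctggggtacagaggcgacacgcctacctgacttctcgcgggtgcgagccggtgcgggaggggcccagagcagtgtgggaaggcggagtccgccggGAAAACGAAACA
Tlr2: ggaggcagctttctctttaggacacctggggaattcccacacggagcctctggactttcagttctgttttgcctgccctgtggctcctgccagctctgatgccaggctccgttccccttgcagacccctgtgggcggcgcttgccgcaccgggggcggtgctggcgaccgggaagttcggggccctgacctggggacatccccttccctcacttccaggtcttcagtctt
The *Ddx58* match is on the reverse strand, *Ddx60* holds 2 copies of 1 identical match upstream of its start, and in *Eif2ak2* the first capitals are the interferon-γ-activated letters and the last are 2 overlapping response element matches after the start, of which the second runs past the end shown.

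To give the counts of sensors a background, a gene was counted as higher or lower when its level differed at least 2-fold and the counting interval of the ratio excluded 1, among genes at 10 CPM or more in either library of the comparison. In β-cells IFN-γ was accompanied by higher levels of 7 of the 8 sensors, against 4.16% of all genes tested, and *Tlr2* was the exception. With both cytokines all 8 were higher (12% of all genes). With IL-1β alone 5 were higher, *Ddx58*, *Ifih1*, *Ddx60*, *Eif2ak2* and *Tlr2* (17.8% of all genes), while *Dhx58*, *Zbp1* and *Tlr3* remained under 10 CPM in both libraries and were not counted. Lower genes made up 3.60% of all genes under IL-1β, 0.129% under IFN-γ and 7.26% under both, and none of the sensors was among them. The 3 comparisons share the untreated library, so a low count there moves all of them together.

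The pair of cytokines was also set against each cytokine alone. Relative to IL-1β, the combined library had higher levels of 5 sensors in β-cells, *Ddx58*, *Dhx58*, *Ddx60*, *Zbp1* and *Tlr3*, against 2.28% of all genes. Relative to IFN-γ, only *Tlr2* was higher by this rule (5.31% of all genes) and only *Ddx60* was lower (10.2%). *Dhx58* lay immediately below the 2-fold line, at 1.997.

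All-gene shifts between the libraries bear on these counts. Hormone transcripts took 47.6%, 28.7%, 34.5% and 38.2% of β-cell UMIs. The median gene of the β-cells shifted by a log2 ratio of 0.43 under IL-1β, 0.32 under IFN-γ and 0.10 under both, and by -0.01, 0.00 and -0.13 when hormone genes were taken out of the totals. In α-cells the shifts were -0.06, 0.09 and -0.17 and in δ-cells -0.04, -0.06 and -0.22. With hormone genes out, the count for IL-1β in β-cells was 3, without *Ddx60* and *Eif2ak2*, and the count for the pair against IFN-γ was 2, with *Dhx58* added. Ratios below are on the full totals.

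In α-cells all 7 sensors at 10 CPM or more were higher with IFN-γ (4.77% of all genes), *Tlr2* being under that level, 5 of 8 with both cytokines (9.14%) and 1 of 4, *Tlr2*, with IL-1β (7.72%), where *Dhx58*, *Ddx60*, *Zbp1* and *Tlr3* were under it. In δ-cells the counts were 7 of 8 with IFN-γ (3.46%), 7 of 8 with both (9.86%) and 2 of 6, *Ddx58* and *Tlr2*, with IL-1β (7.77%), where *Dhx58* and *Tlr3* were under 10 CPM. Lower genes made up 9.01%, 1.69% and 13.2% of all genes in α-cells under IL-1β, IFN-γ and both, and 8.92%, 3.06% and 15.3% in δ-cells. IFN-γ was thus accompanied by the same number of higher sensors in all 3 endocrine types, and with all cells *Tlr2* was higher with IL-1β in each of them. With every cell thinned to 4000 UMIs the α-cell count for both cytokines was 3 (*Dhx58*, *Zbp1* and *Tlr2*) and the δ-cell count for IL-1β was 1 (*Tlr2*). In cells of 8000 to 12000 UMIs, a range chosen after seeing the data, that δ-cell count was 1 as well, but of *Eif2ak2*, and *Tlr2* stood at 2.88 times untreated with an interval that includes 1.

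**Figure D1:**
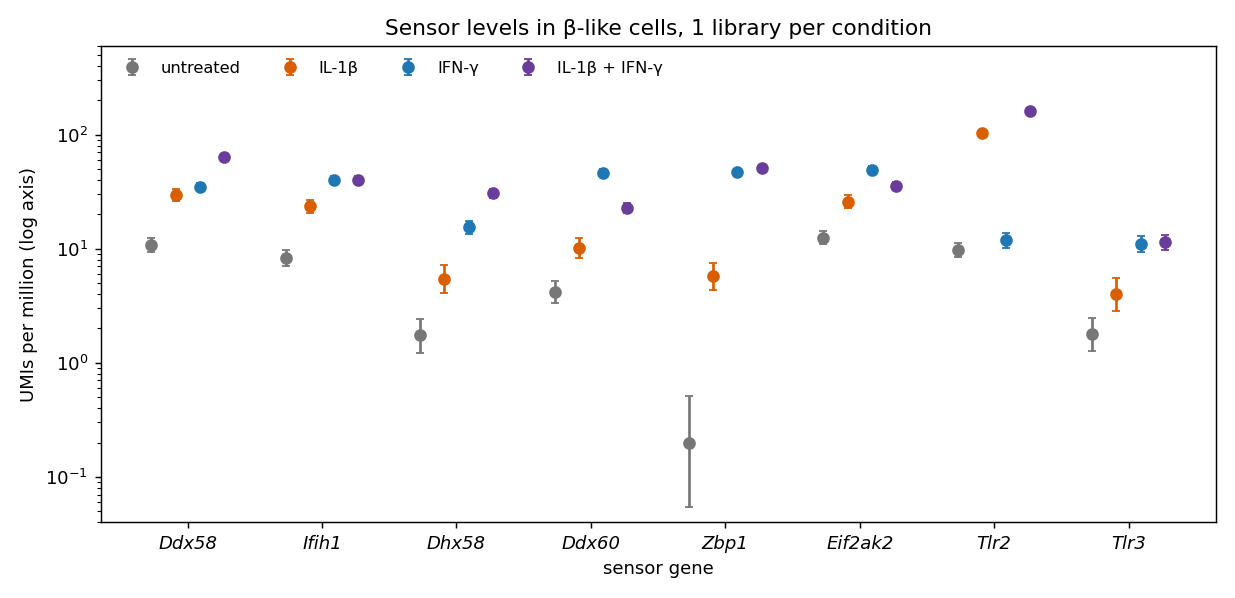
Level of each sensor in β-cells in CPM on a log axis, for each of the 4 libraries; points are 1 library each and bars are exact 95% Poisson intervals. *Tlr2* lies at 9.84 and 11.8 CPM in the untreated and IFN-γ libraries and at 103 and 161 CPM in those with IL-1β, whereas *Zbp1* goes from 0.200 CPM untreated to 46.7 CPM with IFN-γ.

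*Ddx58*, the RIG-I helicase, was measured in β-cells at 10.8 CPM in the untreated library (95% interval 9.45 to 12.4), 29.8 under IL-1β (26.4 to 33.4), 34.8 under IFN-γ (31.8 to 38.0) and 63.7 under both (59.8 to 67.8). All 3 cytokine libraries lay above the untreated one, the 2 single-cytokine intervals overlapped, and the combined library was above both. The ratios to untreated were 2.75 under IL-1β (2.30 to 3.29), 3.21 under IFN-γ (2.73 to 3.78) and 5.87 under both (5.07 to 6.83). The combined level was 1.83 times that with IFN-γ alone (1.64 to 2.05) and 2.14 times that with IL-1β alone (1.87 to 2.45). The combined level was 1.19 times the sum of the untreated level and the 2 single-cytokine increments. For *Ddx58* this ratio was 0.889 in α-cells and 1.97 in δ-cells. In β-cells it was under 1 for *Zbp1* (0.974), *Tlr3* (0.866), *Ifih1* (0.728), *Eif2ak2* (0.568) and *Ddx60* (0.433). The same sensors were under 1 in α- and δ-cells. No interval or all-gene value is given for these ratios. The share of β-cells with at least 1 *Ddx58* UMI at 4000 UMIs was 5.06%, 10.4%, 12.4% and 21.7%, and without thinning it was 15.7%, 21.2%, 30.6% and 45.5%.

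The gain of *Ddx58* with the cytokine pair over IFN-γ was seen in δ-cells as well, while the α-cell interval included 1. In δ-cells the level was 19.4 CPM untreated, 43.3 under IL-1β, 50.6 under IFN-γ and 147 under both (122 to 177). The combined level there was 2.91 times that with IFN-γ (2.14 to 3.99). In α-cells the levels were 12.1, 16.1, 38.8 and 38.1 CPM, with a ratio of both to IFN-γ of 0.982 (0.694 to 1.38), where the median gene stood at 0.833. The α-cell and δ-cell intervals of this ratio did not overlap, but the difference between types was not tested over replicates. In the combined library *Ddx58* stood 2.31-fold higher in δ-cells than in β-cells (1.89 to 2.80), and 1.71-fold higher when hormone genes were taken out of the totals.

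*Ifih1*, which encodes the MDA5 helicase, had β-cell levels of 8.35 CPM untreated (7.13 to 9.71), 23.6 under IL-1β (20.6 to 26.8), 40.0 under IFN-γ (36.8 to 43.5) and 40.2 under both (37.1 to 43.5). The IFN-γ and combined libraries overlapped within counting error, at a ratio of 1.004 (0.895 to 1.13) or 1.185 over the median gene, and stood above IL-1β. Relative to untreated the ratios were 2.83 under IL-1β (2.30 to 3.47), 4.80 under IFN-γ (4.03 to 5.74) and 4.82 under both. In β-cells of 8000 to 12000 UMIs they were 1.52, 2.89 and 2.80, and the interval under IL-1β included 1. *Ifih1* was found in 3.23%, 8.75%, 14.9% and 14.7% of thinned β-cells, and in 12.8%, 16.6%, 33.6% and 33.8% without thinning.

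The highest resting level of *Ifih1* among the endocrine types was in α-cells. Untreated α-cells had 64.7 CPM (49.2 to 83.4), 7.75 times the untreated β-cell level (5.66 to 10.5). With hormone genes out of the totals, which took 23.9% of α-cell and 47.6% of β-cell UMIs, the ratio was 5.34. The α-cell level was 46.2 CPM under IL-1β (37.7 to 56.0), 164 under IFN-γ (148 to 181) and 50.1 under both (39.4 to 62.8). IFN-γ alone therefore stood above the other 3 libraries, whose intervals overlapped one another. The combined level in α-cells was 0.305 times that with IFN-γ (0.235 to 0.391), where β-cells gave 1.004 and δ-cells 1.17, and it ranged from 0.235 to 0.348 over all 8 alternative processings. At 4000 UMIs, 18.3%, 16%, 44.2% and 13.4% of α-cells were positive. The α-cell numbers behind these values were 90, 333, 299 and 169. In δ-cells the levels were 15.9, 27.4, 60.5 and 70.5 CPM.

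*Dhx58*, the gene of the regulatory helicase LGP2, was highest with the cytokine pair in every endocrine type named here. Its β-cell level was 1.75 CPM untreated (1.22 to 2.43), 5.48 under IL-1β (4.11 to 7.17), 15.4 under IFN-γ (13.4 to 17.6) and 30.8 under both (28.1 to 33.7). The 4 intervals did not overlap. The ratios to untreated were 3.13 under IL-1β (2.01 to 4.95), 8.81 under IFN-γ (6.15 to 13.0) and 17.6 under both (12.5 to 25.6). In cells of 8000 to 12000 UMIs they were 1.19, with an interval that includes 1, 4.36 and 8.55. The ratio of both to IFN-γ was 1.997 (1.70 to 2.35), and the combined level was 1.61 times the sum of the untreated level and the 2 single increments. The thinned shares of positive β-cells were 0.611%, 2.26%, 5.58% and 10.4%, against 2.97%, 4.31%, 14.9% and 29.2% unthinned.

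The libraries with IFN-γ were ordered alike in the other endocrine types, with the combined one above IFN-γ alone. In α-cells it had 3.29 CPM untreated, which is only 3 UMIs, 2.69 under IL-1β, 12.9 under IFN-γ and 34.8 under both, and in δ-cells 1.76 CPM (1 UMI), 6.84, 30.2 and 85.6 (66.5 to 109). The combined library exceeded IFN-γ by 2.69 times in α-cells (1.69 to 4.34) and 2.83 times in δ-cells (1.89 to 4.30). The ratio to the untreated level plus the single increments was 2.82 in α-cells and 2.42 in δ-cells. δ-cells of the combined library stood 2.78-fold above β-cells (2.13 to 3.59), or 2.06-fold with hormones out, where they took 16.4% of δ-cell and 38.2% of β-cell UMIs. *Dhx58* reads cannot be told from those of the overlapping antisense gene if the strand was not used in counting.

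*Ddx60*, a helicase described as a cofactor of RIG-I-like receptors, ran in the opposite direction when IL-1β was added to IFN-γ. Its β-cell level was 4.197 CPM untreated (3.35 to 5.20), 10.2 under IL-1β (8.32 to 12.5), 46.6 under IFN-γ (43.1 to 50.3) and 22.8 under both (20.5 to 25.3). The 4 intervals were separate, and the combined library lay between IL-1β and IFN-γ. IFN-γ alone was 11.1 times untreated (8.83 to 14.1) and both 5.43 times (4.27 to 6.98), so the combined level was 0.490 times that with IFN-γ (0.429 to 0.558). That ratio ranged from 0.472 to 0.615 over the alternative processings, and the median gene of the same comparison had a log2 ratio of -0.24. At 4000 UMIs, 1.83%, 4.14%, 17.2% and 7.77% of β-cells held a *Ddx60* UMI, and without thinning 6.44%, 7.21%, 35.7% and 18.7% did.

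*Ddx60* was lower with the pair than with IFN-γ in the other endocrine types too. In α-cells the ratio of both to IFN-γ was 0.442 (0.237 to 0.780), from levels of 24.2 CPM with IFN-γ and 10.7 with both, and 2.19 (2 UMIs) untreated and 3.14 with IL-1β. Over the alternatives it ranged from 0.168 to 0.528. In δ-cells it was 0.583 (0.365 to 0.907), from 60.5 and 35.3 CPM, with 10.6 untreated and 5.70 with IL-1β. That δ-cell interval includes the median gene, at 0.906. The combined level thus lay below the IFN-γ level in all 3 types, while *Dhx58* in the same cells lay above it.

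*Eif2ak2*, the PKR kinase gene, shared the direction of *Ddx60* in β-cells to a lesser extent. Its β-cell level was 12.5 CPM untreated (11.04 to 14.2), 26.0 under IL-1β (22.8 to 29.4), 49.4 under IFN-γ (45.8 to 53.2) and 35.7 under both (32.8 to 38.8), and the 4 intervals were separate. The ratios to untreated were 2.07 under IL-1β (1.73 to 2.48), 3.94 under IFN-γ (3.41 to 4.57) and 2.84 under both (2.45 to 3.31). With both it was 0.722 times the IFN-γ level (0.645 to 0.808), where the median gene stood at 0.848. With each cell thinned to 4000 UMIs the log2 ratio of both to IFN-γ was -0.14 (-0.42 to 0.14), so that this difference was not detectable at equal depth. The thinned shares were 5.67%, 9.22%, 18.04% and 13.4%, and the unthinned ones 18.9%, 18.03%, 38.9% and 31.2%.

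In α-cells *Eif2ak2* was at 35.1 CPM untreated, 2.80 times the untreated β-cell level (1.87 to 4.05) or 1.93 times with hormones out. It had 20.2 CPM under IL-1β, 78.8 under IFN-γ and 40.1 under both. The combined α-cell level was 0.509 times that with IFN-γ (0.374 to 0.684) and 1.14 times untreated, so the IFN-γ library was again the high one. In δ-cells the values were 26.4, 47.9, 119 and 91.9 CPM, with both at 0.770 times IFN-γ (0.575 to 1.02), an interval that includes 1 and the median gene at 0.906. Thinned to 4000 UMIs that ratio was 0.509, with an interval below 1.

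**Figure D2:**
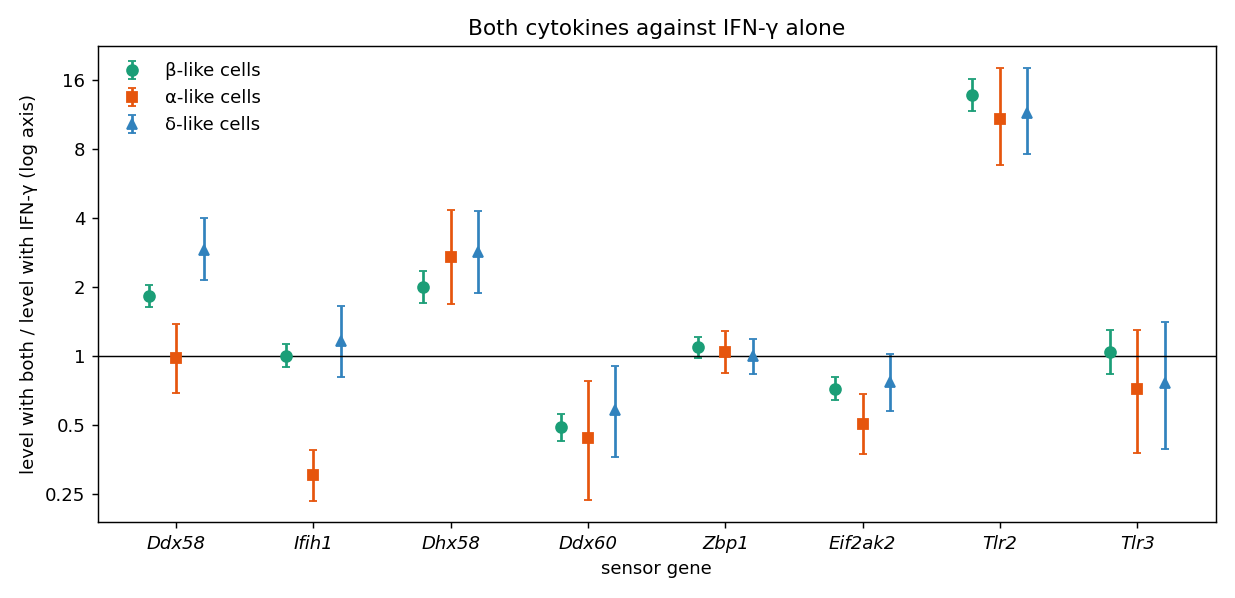
Ratio of the level with both cytokines to the level with IFN-γ alone for each sensor in β-, α- and δ-cells, on a log axis with 95% counting intervals; a value of 1 is no difference. *Tlr2* lies between 10.8 and 13.7, *Dhx58* between 1.997 and 2.83, and *Ddx60* between 0.442 and 0.583, while *Ifih1* is at 0.305 in α-cells and near 1 in the other types.

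*Zbp1*, the Z-nucleic acid sensor, had the widest range of the 8 between the libraries of β-cells as a ratio, while in CPM *Tlr2* had the widest. Untreated β-cells held 4 UMIs of it in all, 0.200 CPM (0.0545 to 0.512), and none of 1146 untreated β-cells thinned to 4000 UMIs was positive, which allows up to 0.321% of cells with a UMI at that depth and sets no limit on cells that express the gene. The level was 5.79 CPM under IL-1β (4.37 to 7.52), 46.7 under IFN-γ (43.2 to 50.4) and 50.9 under both (47.4 to 54.6). The IFN-γ and combined libraries overlapped, at a ratio of 1.09 (0.983 to 1.21) or 1.29 over the median gene, and both stood far above IL-1β, which in turn was above untreated. Because of the 4 UMIs the ratios to untreated are loosely bounded, at 29.0 under IL-1β (10.7 to 110), 233 under IFN-γ (90.7 to 859) and 255 under both (99.0 to 937). In cells of 8000 to 12000 UMIs these ratios were 5.68, with an interval that includes 1, 56.2 and 71.9. The thinned shares with IL-1β, IFN-γ and both were 2.16%, 15.4% and 15.6% of β-cells, and unthinned shares were 0.339% untreated, 4.31%, 30.7% and 33.4%.

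The δ-cells had the highest *Zbp1* of the endocrine types under IFN-γ. They had 5.29 CPM untreated (3 UMIs), 14.8 under IL-1β, 277 under IFN-γ (249 to 306) and 276 under both (240 to 315). In the IFN-γ library this was 5.93 times the β-cell level (5.20 to 6.75), or 4.93 times with hormone genes out, which took 21.2% of δ-cell and 34.5% of β-cell UMIs. At 4000 UMIs, 56.1% of δ-cells were positive with IFN-γ and 52.9% with both, against 1.61% untreated and 5.56% with IL-1β. In α-cells the levels were 1.10 CPM (1 UMI), 7.62, 98.4 and 103, so that α-cells lay between β- and δ-cells with IFN-γ. Among PP-cells, with 27, 23, 51 and 44 cells, *Zbp1* had no UMI untreated, 5.84 CPM under IL-1β, 60.1 under IFN-γ and 150 under both, which is at least 17.5-fold above untreated when the untreated library is set to 3 counts.

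*Tlr2*, the lipoprotein receptor, was higher in both libraries with IL-1β in β-, α- and δ-cells, while IFN-γ alone did not differ from untreated beyond counting error. Its β-cell level was 9.84 CPM untreated (8.52 to 11.3), 103 under IL-1β (96.7 to 110), 11.8 under IFN-γ (10.1 to 13.8) and 161 under both (155 to 168). Untreated and IFN-γ overlapped, at a ratio of 1.201 (0.972 to 1.48) that became 0.960 over the median gene and 0.961 with hormones out of the totals. IL-1β alone was 10.5 times untreated (8.97 to 12.3) and both 16.4 times (14.2 to 19.1). The pair exceeded IL-1β alone 1.57 times (1.46 to 1.69) and IFN-γ alone 13.7 times (11.7 to 16.1), and was 1.54 times the sum of the untreated level and the 2 single increments. Of thinned β-cells, 3.93% untreated, 30.7% under IL-1β, 3.88% under IFN-γ and 41.5% under both held *Tlr2*, and without thinning the shares were 14.2%, 49.0%, 11.1% and 74.6%.

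Endothelial cells are set beside the β-cells for *Tlr2*. They were few and were chosen with their low *Tlr2* known, so their shares are no measure of free *Tlr2* RNA. Their libraries held 0, 1, 5 and 0 UMIs. Thinned to 2000 UMIs, the share of positive endothelial cells was 0% (an interval up to 13.2%), 0% (up to 14.3%), 5.41% (up to 18.2%) and 0% (up to 16.1%), and that of β-cells was 1.56%, 18.1%, 2.76% and 25.2%. The β-cell shares with IL-1β and with both lay above the endothelial upper bounds of the same libraries. Those of the untreated and IFN-γ libraries lay below them and could not be told apart from the endothelial shares at this depth. Given how the endothelial cells were chosen, no conclusion is drawn from this, and the part of free RNA in the β-cell shares was not tested. Median depths before thinning were 5270, 3480, 3900 and 10944 UMIs in endothelial cells and 17147.5, 8305, 11036 and 12196 in β-cells.

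The order of the *Tlr2* levels was the same in α- and δ-cells. In α-cells they were 4.38 CPM untreated (4 UMIs), 52.4 under IL-1β, 8.76 under IFN-γ and 94.2 under both, so that IL-1β was 11.96 times untreated (4.55 to 44.6) and the pair 10.8 times IFN-γ (6.78 to 17.9). In δ-cells they were 19.4, 119, 19.7 and 225 CPM (194 to 261 with both), so that IL-1β was 6.12 times untreated (3.28 to 12.6) and the pair 11.5 times IFN-γ (7.57 to 18.04). In cells of 8000 to 12000 UMIs these 2 δ-cell ratios were 2.88 and 5.06, and over all alternatives the α-cell ratio for IL-1β ranged from 5.34 to 24.7. The pair exceeded IL-1β alone 1.80 times in α-cells (1.40 to 2.32) and 1.90 times in δ-cells (1.48 to 2.44). The combined levels were 1.66 times the sum of the untreated level and the single increments in α-cells and 1.90 times in δ-cells. Thinned shares with both were 32.9% of α-cells and 51.9% of δ-cells, against 1.22% and 9.68% untreated.

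*Tlr3*, the endosomal double-stranded RNA receptor, was low throughout and followed IFN-γ. Its β-cell level was 1.80 CPM untreated (1.26 to 2.49), 4.03 under IL-1β (2.87 to 5.51), 10.98 under IFN-γ (9.32 to 12.8) and 11.4 under both (9.82 to 13.3). The last 2 overlapped. IFN-γ was 6.10 times untreated (4.23 to 9.03) and IL-1β 2.24 times (1.39 to 3.63). In cells of 8000 to 12000 UMIs the ratios to untreated were 0.904 under IL-1β, 2.25 under IFN-γ and 2.40 under both, and the first and second intervals included 1. The thinned shares were 0.785%, 1.60%, 3.88% and 4.94%, and the unthinned ones 2.80%, 3.43%, 10.96% and 12.02%. In α-cells the levels were 6.58, 4.48, 15.8 and 11.4 CPM and in δ-cells 8.81, 7.98, 26.5 and 20.1, with the IFN-γ library the highest in both.

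**Figure D3:**
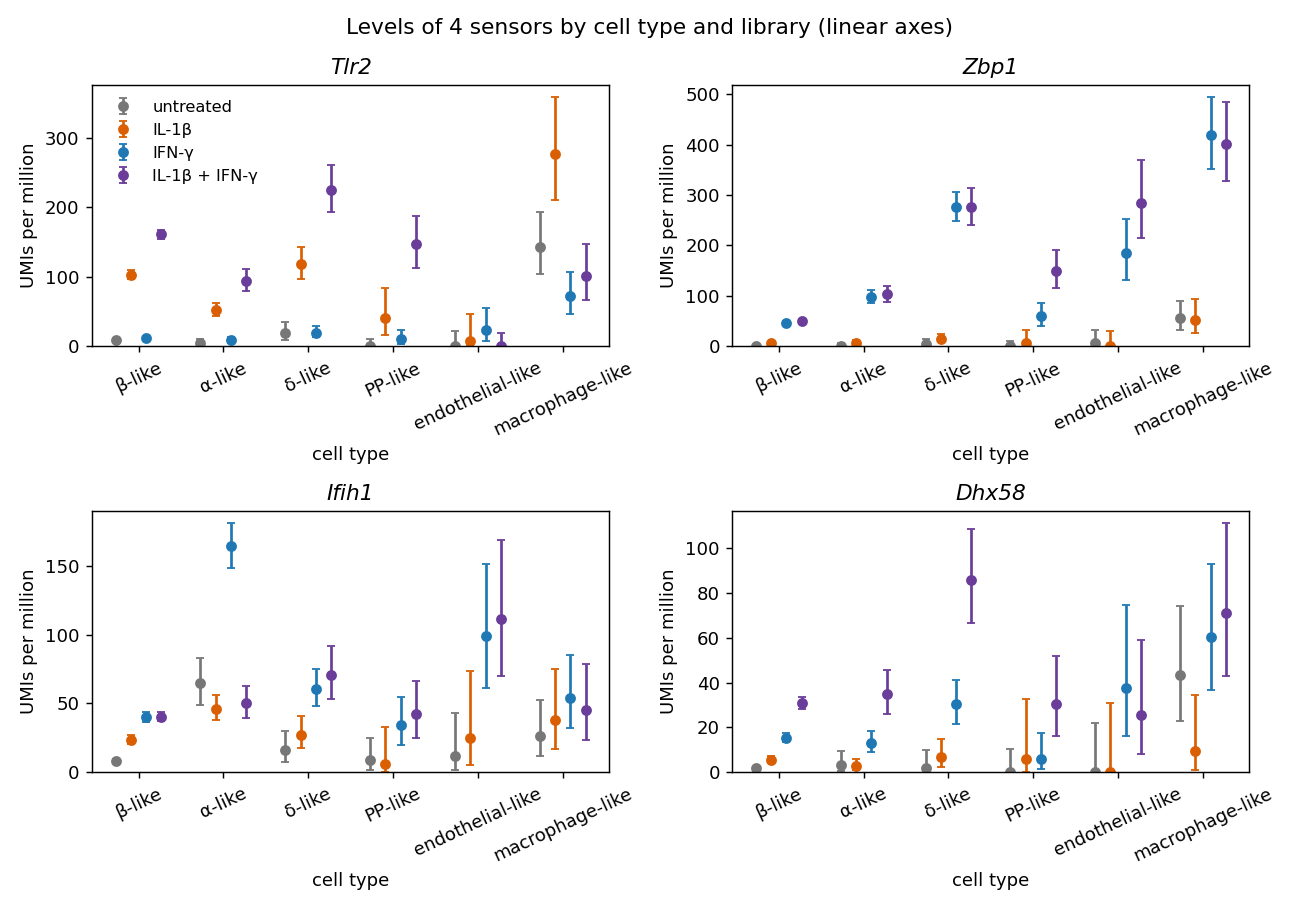
Levels of *Tlr2*, *Zbp1*, *Ifih1* and *Dhx58* in CPM in β-, α-, δ-, PP-, endothelial and macrophage cells for each of the 4 libraries, with 95% Poisson intervals on linear axes. *Tlr2* with both cytokines reaches 225 CPM in δ-cells and stands at 101 CPM in macrophages, *Zbp1* with IFN-γ reaches 277 CPM in δ-cells and 418 CPM in macrophages, and *Ifih1* with IFN-γ reaches 164 CPM in α-cells.

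Resident macrophages, which are known to carry many of these sensors, gave a different picture for *Tlr2*. In 35, 37, 42 and 30 macrophages, *Tlr2* stood at 143, 277, 72.2 and 101 CPM. IL-1β was 1.94 times untreated (1.28 to 2.95), IFN-γ 0.504 times (0.293 to 0.850), and the combined library 0.365 times IL-1β (0.222 to 0.586). The pair was therefore below IL-1β in macrophages and above it in β-cells. *Zbp1* was already at 56.6 CPM in untreated macrophages, 283 times the β-cell level (92.3 to 1156), or 149 times with hormone genes out of the totals. It was at 52.6 under IL-1β, 418 under IFN-γ and 401 under both, so that IFN-γ was 7.39 times untreated (4.45 to 13.0).

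*Dhx58* in macrophages was at 43.3, 9.56, 60.1 and 71.2 CPM and *Eif2ak2* at 13.3, 9.56, 36.1 and 71.2, with the combined library of *Eif2ak2* 5.35 times untreated (1.78 to 21.6). *Ifih1* ranged from 26.6 to 54.1 CPM over the 4 libraries and *Ddx58* from 3.75 to 19.97 with few UMIs. The combined library had the lowest *Ddx58* of the 4 in macrophages and the highest in β- and δ-cells. In macrophages it rested on 1 UMI against 6 untreated, a ratio of 0.188 (0.00408 to 1.55) with an interval that includes 1.

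The 27, 30, 39 and 21 endothelial cells had *Zbp1* at 5.98 CPM untreated (1 UMI), no UMI under IL-1β, which allows up to 25.2 CPM at 3 counts, 184 under IFN-γ and 284 under both. *Ddx58* was at 23.9, 50.4, 123 and 101 CPM, *Ifih1* at 11.95, 25.2, 99.2 and 112, and *Eif2ak2* at 23.9, 8.40, 118 and 106. The levels of all 4 were thus higher in the libraries with IFN-γ than in those without it, although for *Ddx58* the ratio of both to IL-1β, 2.01 (0.779 to 6.12), had an interval that includes 1.

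Macrophage RNA was looked for in the endocrine cells because macrophages hold several of the sensors. The 11 macrophage markers summed to 74.1, 51.2, 47.7 and 149 CPM in β-cells, of which the most abundant, *C1qa*, made up 69.3, 36.3, 40.0 and 137. With at least 1 UMI were 9, 7, 9 and 10 of the 11, and *Adgre1*, a defining marker, was at 0 in β-cells of all 4 libraries. The sum in δ-cells was 102, 30.8, 67.3 and 91.9 CPM and in α-cells 52.6, 17.0, 26.7 and 47.4. The β-cell sum was highest in the combined library, where 6 of the 8 sensors, all but *Ddx60* and *Eif2ak2*, had their highest level as well, and its part in those results was not tested. *Tlr2* in the combined library was at 101 CPM in macrophages and 161 CPM in β-cells. The 9 endothelial markers summed to 6.60, 3.21, 6.54 and 6.88 CPM in β-cells. In macrophages themselves the list summed to 262 of every 10000 UMIs.

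How many different sensors a single cell held was counted at 4000 UMIs. Of β-cells, 80.4%, 48.0%, 40.5% and 26.2% held none. Cells with at least 3 sensors made up 0.174%, 2.82%, 6.96% and 13.0%. δ-cells with both cytokines had the most, with 41.3% at 3 or more and 4.81% at none. The maximum was 7 of the 8 sensors, reached by 2 of these cells. In α-cells IFN-γ and the combination were close, with 15.8% and 14.0% at 3 or more. Cells under 4000 UMIs could not be used, and these numbered 34, 74, 50 and 30 β-cells, 8, 33, 14 and 5 α-cells, and 7, 43, 19 and 20 δ-cells. Thinning was on all UMIs, hormone transcripts included. Hormones took 47.6% of UMIs in untreated β-cells, and 38.2% of β-cell and 16.4% of δ-cell UMIs in the combined library. Their part in the differences between types and libraries was not tested.

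**Figure D4:**
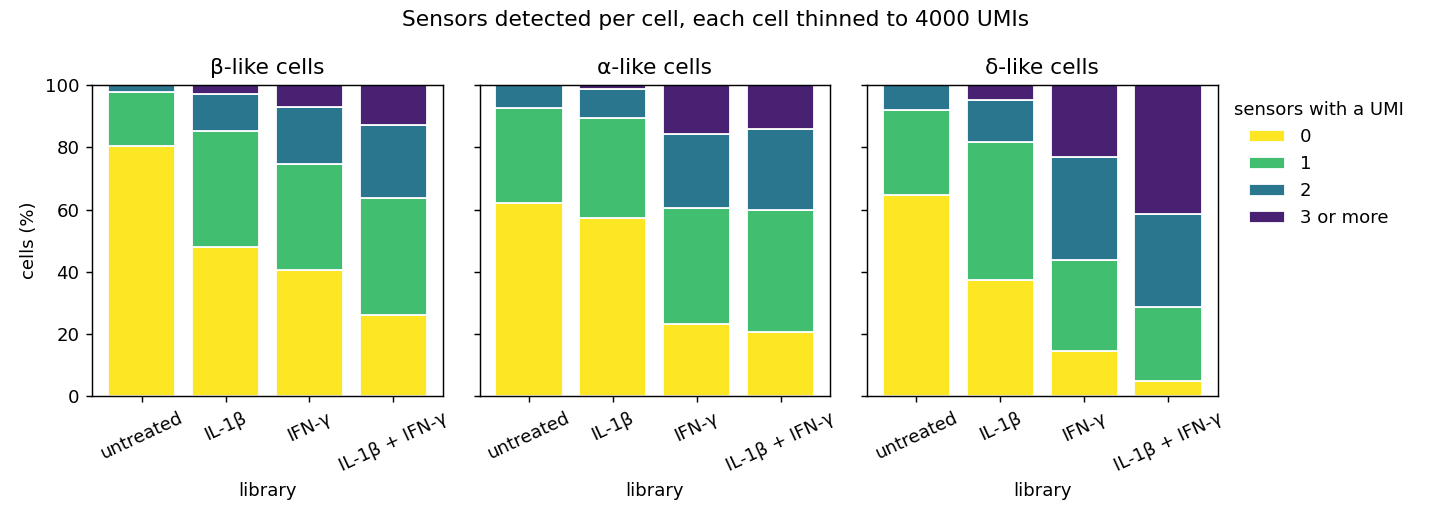
Percentage of β-, α- and δ-cells, each thinned to 4000 UMIs, with 0, 1, 2 or at least 3 of the 8 sensors detected, as stacked bars for the 4 libraries. The share of β-cells with none goes from 80.4% untreated to 26.2% with both cytokines, and 41.3% of δ-cells with both hold 3 or more.

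β-cells of 1 library were also set apart by *Nos2*, which encodes the inducible nitric oxide synthase. In the combined library 899 β-cells with a *Nos2* UMI and 366 without had *Zbp1* at 57.6 (53.4 to 62.2) and 30.4 CPM (25.1 to 36.4), *Tlr2* at 172 (165 to 180) and 130 (118 to 141), and *Ddx58* at 67.8 and 51.1. All 8 sensors were higher in the *Nos2*-positive cells of this library, with overlapping intervals for *Ddx60* and *Eif2ak2*. The *Nos2*-positive cells were also deeper, at a median of 12821 against 10543 UMIs. No share over all genes or median-gene shift is given for this split. With IL-1β alone, 330 positive and 807 negative cells had *Tlr2* at 131 (119 to 145) and 89.5 CPM (82.4 to 97.1). *Ifih1* was at 30.7 (24.9 to 37.5) and 20.2 CPM (16.9 to 23.9) in them. The intervals of *Zbp1*, at 6.08 and 5.65 CPM, and *Ddx58*, at 33.0 and 28.3, overlapped. The cells of a library are not replicates of the condition, and the 2 groups were formed after capture.

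A small set of β-cells with much *Hspa1a*, the inducible heat-shock protein gene, had lower levels of several sensors. Taking those with at least 10 *Hspa1a* UMIs per 10000, the combined library had 80 such cells and 1185 others. *Zbp1* was at 17.8 CPM in them and 52.9 in the others, *Tlr2* at 108 and 165, and *Ddx58* at 37.7 and 65.3. *Ifih1* was at 17.8 and 41.6, and *Dhx58* at 11.1 and 32.0. *Ddx60* was at 8.88 and 23.7, *Eif2ak2* at 15.5 and 36.9, and *Tlr3* at 3.33 and 11.9, so all 8 sensors lay lower there. No share over all genes or median-gene shift is given for this split. With IL-1β alone *Tlr2* was at 31.7 CPM in 99 such cells and 108 in 1038 others, and with IFN-γ *Zbp1* at 9.86 (3.96 to 20.3) in 79 and 48.6 (44.9 to 52.5) in 1207. Median depths of the *Hspa1a*-rich and other cells were 11806 and 12222 UMIs in the combined library, 6366 and 8446 with IL-1β and 8824 and 11166 with IFN-γ. Under IFN-γ *Ifih1* was at 9.86 CPM (3.96 to 20.3) in the *Hspa1a*-rich and 41.6 (38.3 to 45.2) in the other cells, *Ddx60* at 21.1 (11.8 to 34.9) and 47.9 (44.3 to 51.8) and *Eif2ak2* at 21.1 (11.8 to 34.9) and 50.9 (47.2 to 54.8). The intervals of *Ddx58*, *Dhx58*, *Tlr2* and *Tlr3* overlapped in that library, with *Ddx58* at 29.6 CPM (18.3 to 45.2) and 35.0.

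The genes around the sensors were followed by lists, to be read against the shares of all genes and the median shifts given above. Of 11 adaptors and kinases of the RIG-I-like pathway, 5 of the 7 at 10 CPM or more were higher in β-cells under IL-1β, 2 of 6 under IFN-γ and 4 of 8 under both, with median log2 ratios of 1.193, 0.549 and 1.001. *Ikbke*, the IKKε kinase gene, was at 5.95, 48.0, 6.76 and 57.3 CPM, 8.07 times untreated with IL-1β (6.58 to 9.95). *Irf7*, the interferon regulatory factor gene, was at 8.89, 9.82, 64.9 and 77.3 CPM, 7.30 times untreated with IFN-γ (6.21 to 8.61). The kinase gene therefore followed IL-1β and the transcription factor gene IFN-γ. *Tbk1* was at 11.6, 33.5, 23.4 and 29.5 CPM. The adaptor gene *Mavs* was between 2.65 and 5.21 CPM and *Irf3* between 14.8 and 16.2 in all 4 libraries. In α-cells 5 of 9, 1 of 9 and 4 of 10 of this list were higher with IL-1β, IFN-γ and both, and in δ-cells 3 of 9, 1 of 8 and 5 of 9. Lower were 1, 1 and 2 genes of the list in α-cells and 1 with IFN-γ in δ-cells.

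Among 13 regulators of RNA sensing, 3 of 9 were higher in β-cells under IL-1β, 3 of 10 under IFN-γ and 5 of 9 under both, with medians of 0.83, 0.62 and 1.10. *Zc3hav1*, an antiviral zinc-finger protein gene, was at 27.3, 76.8, 87.6 and 72.2 CPM, *Adar*, which edits double-stranded RNA, at 16.4, 29.2, 43.5 and 52.5, and *Trim25*, a ligase for RIG-I, at 24.0, 28.6, 48.1 and 51.5. All 3 were lowest in the untreated library on the full totals. For *Trim25* the difference between untreated and IL-1β was smaller than that of the median gene, at 1.35 times untreated. The counts were 1 of 10, 3 of 10 and 5 of 12 in α-cells and 1 of 11, 1 of 11 and 4 of 11 in δ-cells, with 2 lower in α-cells and 1 lower in δ-cells with the pair. Of 9 other RNA helicases, 3 of 8 were higher in β-cells with IL-1β, *Ddx3x* (2.45 times untreated), *Dhx9* (2.23) and *Ddx21* (2.15), and 0 of 8 with IFN-γ or both (medians 0.51, 0.27 and 0.19). These ratios are on the full totals, on which the median gene with IL-1β stood at 1.35 times untreated. The counts were 0 of 9 in each α-cell comparison and 1 of 8, 0 of 8 and 0 of 9 in δ-cells.

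None of 10 other Toll-like receptors reached 10 CPM in β-, α- or δ-cells. Of 13 Toll-like receptor partners, 3 of 7 were higher in β-cells under IL-1β, 1 of 7 under IFN-γ and 4 of 8 under both (medians 0.78, 0.48 and 1.38). *Ly96*, which encodes the TLR4 co-receptor MD-2, was at 10.2, 82.6, 17.2 and 76.5 CPM and *Myd88*, the adaptor of TLR2, at 7.50, 22.6, 11.3 and 42.0. *Ly96* thus ran with IL-1β as *Tlr2* did. In α-cells 6 of 11 of these partners were higher under IL-1β, 1 of 9 under IFN-γ and 5 of 11 under both, and in δ-cells 5 of 9, 0 of 6 and 6 of 10, with 1 lower in each α-cell comparison.

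For 6 genes of the death pathway that ZBP1 can engage, 2 of 3 were higher in β-cells under IL-1β, 1 of 3 under IFN-γ and 4 of 4 under both (medians 1.16, 0.98 and 1.87). *Mlkl*, the membrane-permeabilising executor gene, was at 0.949, 7.96, 14.6 and 28.7 CPM, 30.3 times untreated with both (19.1 to 50.7), and *Ripk1* at 18.3, 40.8, 36.1 and 76.3. *Ripk3*, whose product links ZBP1 to MLKL, had 0 to 2 UMIs in the β-cells of each library. *Casp8* was at 7.15, 18.5, 9.01 and 22.9 CPM. *Zbp1* and *Mlkl* were thus high with both cytokines while *Ripk3* was at or near 0. The list counts in α-cells were 1 of 5, 2 of 5 and 2 of 5, and in δ-cells 3 of 5, 2 of 5 and 3 of 5, with 1 lower in each α-cell comparison.

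Of 8 genes around eIF2α, the PKR substrate, 5 of 7 were higher in β-cells under IL-1β, 1 of 7 under IFN-γ and 3 of 7 under both (medians 1.31, 0.66 and 0.76). *Ddit3*, the CHOP transcription factor gene, was at 60.6, 169, 145 and 256 CPM and *Ppp1r15a*, a phosphatase subunit gene, at 17.99, 58.1, 32.0 and 65.3. The highest level of each was with the pair, where *Eif2ak2* was highest with IFN-γ. In α-cells 2 of 8, 1 of 8 and 4 of 7 were higher and in δ-cells 1 of 8, 0 of 8 and 5 of 8.

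Of the DNA and NOD-like sensors, 19 were listed and 18 found, and only 2 to 3 reached 10 CPM in a β-cell comparison. *Nod1* was at 16.8, 5.27, 27.2 and 23.6 CPM and was lower with IL-1β, at 0.313 times untreated (0.229 to 0.421), in the library where *Tlr2* was 10.5 times untreated. None of this list was higher under IL-1β or under IFN-γ, and 1 was higher under both, *Ifi203*, at 0.0999 CPM untreated (2 UMIs), 0.931, 2.53 and 15.4. In α-cells 1 of 2 was higher with IFN-γ and none reached 10 CPM in the other comparisons, and in δ-cells none of 2 was higher and 1 was lower with IL-1β. Of 10 type I and III interferons and their receptors, 2 of 3 were higher in β-cells under IL-1β, 1 of 2 under IFN-γ and 2 of 3 under both (medians 1.08, 0.71 and 1.09), against 0 of 3 in each α-cell comparison and 2 of 3, 1 of 3 and 2 of 4 in δ-cells. *Ifnar2*, a receptor chain for type I interferon, was at 8.89, 18.8, 19.5 and 18.9 CPM in β-cells. *Ifnb1*, the interferon-β gene that RIG-I-like receptors are known to turn on, had no UMI in β-, α- or δ-cells of any library, which in β-cells allows 0.150 CPM untreated and 0.310 CPM with IL-1β at 3 counts.

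The genes most like each sensor were sought by Pearson's r of log2(CPM + 1) over 12 profiles, the β-, α- and δ-cells of the 4 libraries, among 8117 other genes at 20 CPM or more in 1 profile. Profiles of a library share its depth and free RNA, so the values are descriptions only. *Zbp1* was closest to *Psmb10* (r = 0.990), *Ube2l6* (0.989) and *Vwa5a* (0.983). *Dhx58* was closest to *Tap2* (0.987), *Parp14* (0.985) and *Trafd1* (0.983). *Tlr2* was closest to *Gm16685* (0.980), *Sqstm1* (0.978) and *Litaf* (0.976). The nearest genes of *Ddx58* were *Aida* (0.973) and *Enpp4* (0.959), of *Tlr3* *Shisa5* (0.956), of *Eif2ak2* *Il17rc* (0.955), of *Ddx60* *Uba7* (0.939) and of *Ifih1* *Eif3f* and *Tcf7l2* (both 0.893). *Ifih1* thus had the least close neighbours of the 8, and among the sensors r was highest for *Eif2ak2* and *Tlr3* (0.940) and lowest for *Ifih1* and *Tlr2* (-0.03).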

How the data were processed

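Single-cell RNA was measured in 4 islet libraries, 1 per group. The deposited files are gene by barcode tables of UMI counts that the authors made with Cell Ranger on the mm10 genome, per the submitters' processing notes, and the matrix headers give software version 3.0.0. Per the labels the kit was version 2 and the authors' methods name version 3. The deposited counts are not normalised.

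Barcodes with 200 to 4000 genes and no more than 12% of UMIs from mitochondrial genes were kept. They were called β-, α-, δ- or PP-like when insulin, glucagon, somatostatin or pancreatic polypeptide genes made up at least 5%, 3%, 1% or 8% of UMIs, and macrophage- or endothelial-like at 0.3% of UMIs and 4 markers, with lower or higher limits for rarer types. Within 20% of the hormone limits lay 129 β-, 25 α-, 29 δ- and 44 PP-cells. Cells meeting more than 1 hormone or type limit (299) and cells meeting none (290) were left out. No doublet caller was run, and the gene limit and the removal of mixed cells stood in its place.

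UMIs were summed per library and type and divided by the total (CPM, per 1000000 UMIs). Exact 95% Poisson, ratio and binomial intervals were computed in Python (3.11.15) from pandas (2.3.3), scipy (1.17.1) and numpy (2.4.6) routines, and plots with matplotlib (3.10.9). A gene was counted as higher or lower at a 2-fold difference with the interval off 1, at 10 CPM or more. A library at 0 was set to 3 counts for a bound. Totals per library, 20056630 to 50731370 UMIs, set the precision. The alternatives were a 20% mitochondrial limit, removal of the upper gene limit, thinning to 4000 UMIs, totals without the 7 hormone genes, a mean over cells, stricter type limits, removal of shared barcodes, a 1.5-fold limit and, for shares, thinning to 2000 UMIs. Cells of 8000 to 12000 UMIs were taken as a further alternative chosen after seeing the data.

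The sensors and 9 gene lists (99 genes, of which *Mnda* was not matched) were chosen with earlier results of these data known. The text names all sensors, genes of the lists that were counted as higher or lower in a comparison, and up to 3 of the genes with the highest r to each sensor. *Mavs*, *Irf3*, *Ripk3*, *Ifnb1*, *Ifnl2*, *Ifnl3*, *Tmem173*, *Tlr12*, *Tlr13*, the values of list genes in macrophages and endothelial cells, and the *Nos2* and *Hspa1a* splits were chosen after their values were seen. One α-cell marker is not reported here. Promoters came from RefSeq GRCm38.p6, and positions from GENCODE M21.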

Additional observations from a re-analysis of the deposited data

Results flagged for a closer look

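Barcodes that the mitochondrial limit removed were not part of the comparisons. Those of them with a β-cell share of insulin UMIs, 329 in the untreated, 174 in the IL-1β, 222 in the IFN-γ and 70 in the combined library, held most sensors above the level of the untreated library. In the IFN-γ and combined libraries *Ddx58* was at 40.1 and 75.4 CPM against 11.6 in the removed untreated barcodes. *Ifih1* was at 35.6 and 45.2 CPM against 5.82, and *Dhx58*, the LGP2 gene, at 19.7 and 39.2 against 1.74. *Ddx60* was at 64.9 and 36.2 CPM against 6.40, and *Eif2ak2*, the PKR gene, at 48.4 and 60.3 against 13.4. *Zbp1* was at 38.2 and 36.2 CPM and had no UMI in the removed untreated barcodes. *Tlr2* was at 88.6 CPM with IL-1β and 136 with both, against 11.6. The 2 *Ddx60* intervals, 52.9 to 78.8 and 18.7 to 63.2 CPM, overlapped, as did those of *Eif2ak2*, which in the kept β-cells was lower with both cytokines than with IFN-γ. *Tlr2* was highest where IL-1β was present, as in the kept β-cells.

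*Eif2ak2* differed in direction between 2 cell types under IL-1β. In α-cells its level with IL-1β was 0.575 times untreated (0.358 to 0.935), from 35.1 CPM, and in β-cells 2.07 times (1.73 to 2.48), from 12.5 CPM. The difference was not tested, since each group was 1 library, and in α-cells of 8000 to 12000 UMIs the direction was the opposite.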

How the results depend on the processing

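Of the 99 recomputed counts of higher sensors, 90 stayed within 1.5 times the reported one and 9 did not. For IL-1β in β-cells the count of 5 became 3 with hormone genes out of the totals and with thinning (*Ddx58*, *Ifih1* and *Tlr2* in both), and 3 in cells of 8000 to 12000 UMIs (*Ddx58*, *Eif2ak2* and *Tlr2*), an alternative chosen after seeing the data. For both cytokines against IFN-γ in β-cells the count of 1 became 2 with hormone genes out and with the mean over cells (*Dhx58* and *Tlr2*), and 3 at a 1.5-fold limit, which adds *Ddx58*. For both cytokines in α-cells the count of 5 became 3 with thinning (*Dhx58*, *Zbp1* and *Tlr2*), and for IL-1β in δ-cells the count of 2 became 1 with thinning (*Tlr2*) and 1 in cells of 8000 to 12000 UMIs (*Eif2ak2*). Among the log2 ratios whose intervals excluded 0 as reported, 2 changed sign in cells of that depth, both with IL-1β, *Tlr3* in β-cells at -0.15 and *Eif2ak2* in α-cells at 0.39, now with intervals that include 0. Ratios in α- and δ-cells whose intervals already included 0 changed sign in some settings too. The cause of these changes was not tested. *Tlr2* remained counted with IL-1β in β-cells in each of the settings named here.

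No paired analysis was possible because each group had 1 library. Low counts limit the rarer types most. The 90 untreated α-cells and 69 untreated δ-cells held 1 to 4 UMIs of several sensors, so that their ratios have wide intervals. Differences between animals or incubations are not covered by any interval given.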

Other observations

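*Cd14*, a co-receptor that hands lipids to Toll-like receptors, was seen in α-cells in the libraries with IL-1β. In the order used above it stood at 4.38 (4 UMIs), 220, 3.34 and 210 CPM, 50.1 times untreated with IL-1β (19.4 to 185). In δ-cells it was at 3.52, 19.4, 4.53 and 71.8 CPM and in β-cells at 0.450, 1.55, 0 and 0.707. α-cells therefore held it at a level that β-cells of the same libraries did not. In macrophages, its known source, it was at 929, 1712, 198 and 431 CPM, and the macrophage marker sums in α-cells were 52.6, 17.0, 26.7 and 47.4 CPM. The part of macrophage RNA in the α-cell *Cd14* levels was not tested. *Mlkl*, the executor of necroptosis, was at 3.29, 15.7, 31.7 and 69.5 CPM in α-cells and 8.81, 27.4, 56.7 and 112 in δ-cells, in each case highest with both cytokines, as in β-cells.

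The interferon-inducible DNA sensors were read mainly in endothelial cells and macrophages. *Ifi203* was at 29.9, 33.6, 1077 and 760 CPM in endothelial cells and 16.6, 38.3, 283 and 214 in macrophages. *Mndal*, of the same family, was at 17.9, 50.4, 893 and 786 CPM in endothelial cells and 66.6, 43.0, 259 and 255 in macrophages. *Ifi204* was at 133, 158, 520 and 431 CPM in macrophages and 5.98, 16.8, 246 and 228 in endothelial cells. All 3 were higher in both libraries with IFN-γ than in either library without it. The family has near-identical copies, so that counts could be split among them. *Irf7* in endothelial cells was at 29.9, 84.0, 439 and 603 CPM. *Tmem173*, the STING gene, was at 53.3, 19.1, 102 and 142 CPM in macrophages and at 0, 3.42, 0.756 and 20.1 in δ-cells.

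Of the other Toll-like receptors, *Tlr13*, which reads bacterial ribosomal RNA, was at 79.9, 66.9, 51.1 and 52.5 CPM in macrophages and *Tlr12* at 39.9, 19.1, 54.1 and 78.7, while neither had more than 2 UMIs in the β-cells of any library. Interferon-λ genes, *Ifnl2* and *Ifnl3*, had 15 and 12 UMIs in β-cells with both cytokines and 6 and 9 in δ-cells, and the pair is so alike that their reads may be shared. *Ifnb1* had 4 UMIs in IFN-γ macrophages.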
